A study of Mus musculus with 4 samples.

Results

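Barcodes of mouse submandibular and sublingual gland that carried transcripts of mural genes were examined. A barcode marks one droplet, taken as a cell. A member was a barcode with at least 2 UMIs (unique molecular identifiers, each marking 1 captured RNA molecule) of Rgs5, Notch3, Pdgfrb and Kcnj8 together. It also had 0 UMIs of Krt5 and Krt14 (basal keratins), 0 of Pdgfra and Dpt (fibroblast genes), at most 1 of Cdh5 and Kdr (endothelial genes) and 0 of Ptprc (the leukocyte gene CD45). Of 15707 barcodes, 195 met this rule, or 1.24% (exact binomial 95% interval 1.07% to 1.43%). The glands came from female C57BL/6N mice of 6 to 8 weeks, with a wild-type genotype, in their physiological status, and neither a treatment nor an altered allele was compared. The labels list 4 samples and name 2 mice, and submandibular and sublingual glands were pooled. All barcodes share 1 suffix and cannot be traced to a sample, an animal or a gland. The whole matrix was treated as 1 sample, so no test was run and no p-value is given. The members were chosen by their measured UMIs of the rule genes, and the levels of those genes are therefore a description.

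Mural cells sit on the outside of the endothelial tube of blood vessels. Vascular smooth muscle cells wrap arterioles, arteries and veins and contract through smooth muscle actin and myosin to set vessel diameter, whereas pericytes lie on capillaries inside the shared basement membrane and carry little of that apparatus. Both depend on platelet-derived growth factor B, made by endothelium and read by the receptor Pdgfrb, and on Notch3, which is switched on by ligands of the neighbouring endothelial cells. In salivary glands, blood flow through these vessels supplies the fluid of saliva, and a separate contractile cell, the myoepithelial cell, squeezes the acini.

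The label of the members is pericytes and vascular smooth muscle, and the data bore it out for some of them. Rgs5, a regulator of G protein signalling, had a UMI in 95 members (48.7%), Notch3 in 82 (42.1%), Pdgfrb in 42 (21.5%) and Kcnj8, the pore of a potassium channel gated by ATP, in 84 (43.1%). Des, the muscle intermediate filament desmin and the marker that the rule did not use, gave 102 UMIs over the 195 members, and 94 of them lay in 64 barcodes. These 64 barcodes (32.8%, 26.3% to 39.9%) held at least 10 UMIs of the smooth muscle genes Acta2, Tagln and Myh11 together and are called contractile members below. Another 70 members (35.9%, 29.2% to 43.1%) passed through Kcnj8 alone and held none of Rgs5, Notch3 or Pdgfrb. These Kcnj8-only members carried 0 UMIs of Des and at most 2 UMIs of the 3 smooth muscle genes. Of the rest, 9 members had 3 to 9 UMIs of the 3 genes and 52 had at most 2 with a UMI of Rgs5, Notch3 or Pdgfrb.

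**Figure D1:**
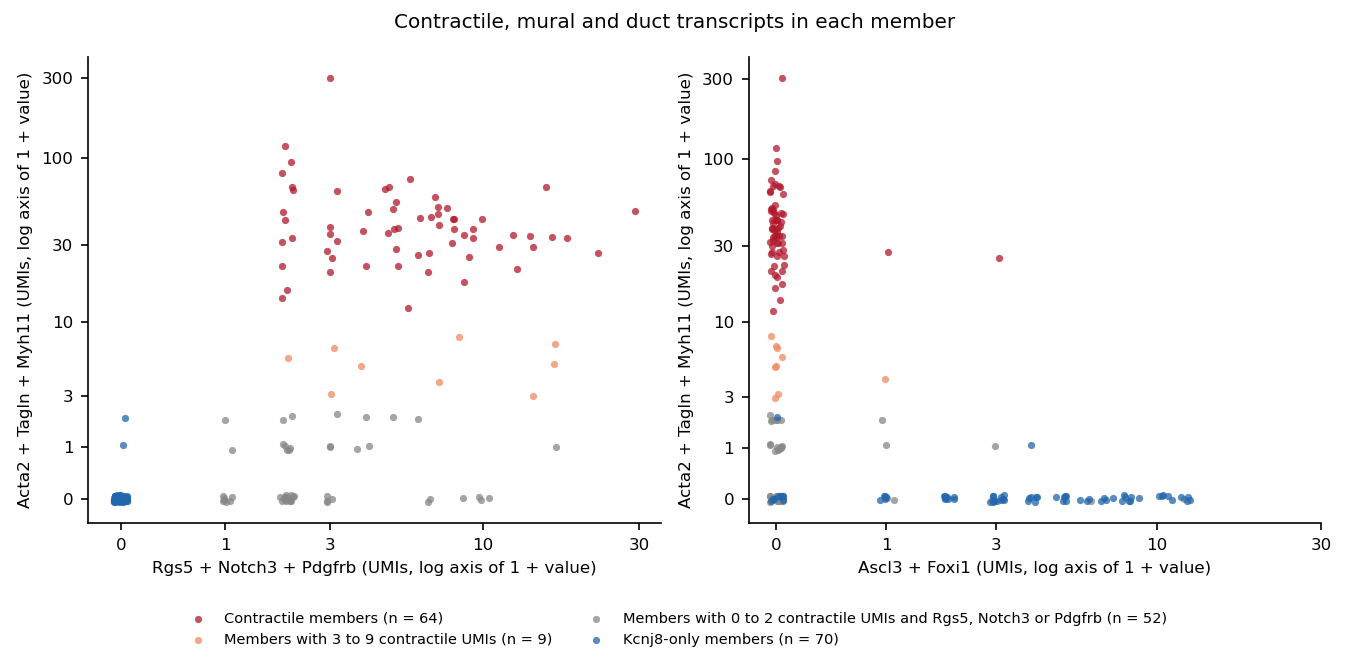
Each point is 1 of the 195 members, with the UMIs of Acta2, Tagln and Myh11 on one axis and either the UMIs of Rgs5, Notch3 and Pdgfrb or those of Ascl3 and Foxi1 on the other, and a little jitter added. The 64 contractile members held 12 to 305 of these UMIs with a median of 37, whereas the 70 Kcnj8-only members held 0 to 2, and 56 of these had at least 2 UMIs of the duct genes Ascl3 and Foxi1.

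The bands are a range cut from a sum and not cell types, although few members lay near the limit. Only 2 of the 195 members held 8 to 13 UMIs of Acta2, Tagln and Myh11, whereas 102 held 0. Just inside the threshold of the rule, 12 of the 105 members with 2 UMIs of the rule genes were contractile (11.4%), and 51 had at least 2 UMIs of Ascl3 and Foxi1 (48.6%). At 3 UMIs the counts were 8 and 8 of 25, and at 4 or more they were 44 (67.7%) and 2 (3.08%) of 65. Just outside, 605 barcodes met every other condition with 1 UMI of the rule genes. There, 14 had at least 10 contractile UMIs (2.31%) and 237 had at least 2 UMIs of Ascl3 and Foxi1 (39.2%). Contractile barcodes were therefore also found outside the members. At least 10 contractile UMIs were held by 171 barcodes of the matrix, of which 71 had a Krt5 or Krt14 UMI and 27 met the other conditions with 0 or 1 UMI of the rule genes.

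**Figure D2:**
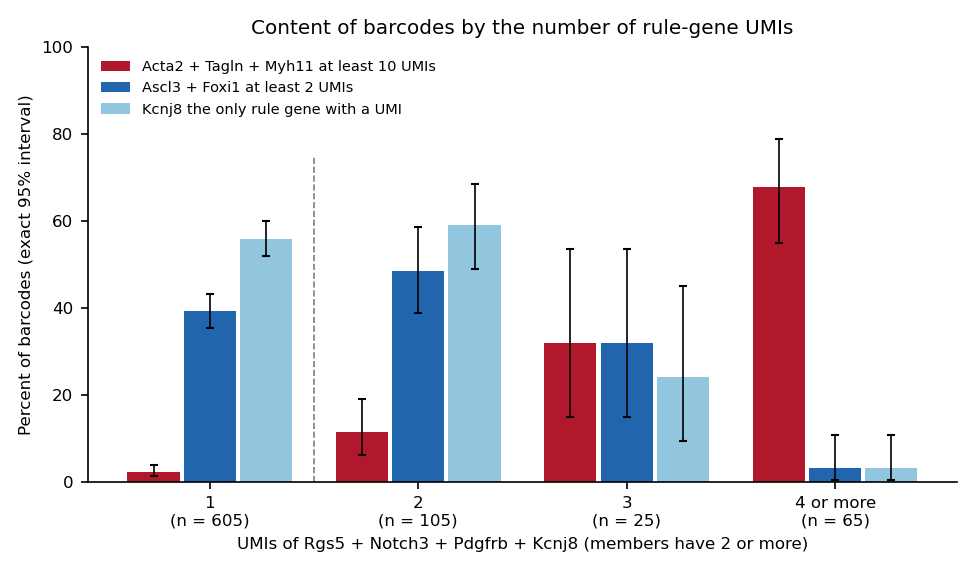
Bars give the percentage of barcodes that were contractile (at least 10 UMIs of Acta2, Tagln and Myh11), had at least 2 UMIs of Ascl3 and Foxi1, or held Kcnj8 and no other rule gene, by the UMIs of the rule genes, with exact binomial 95% intervals. The contractile share was 2.31% at 1 UMI (not members), 11.4% at 2 and 67.7% at 4 or more, and the Ascl3 and Foxi1 share was 39.2%, 48.6% and 3.08%.

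Members held 1392 to 46857 UMIs per barcode with a median of 2388, beside 1374 to 141509 and a median of 2608 over all barcodes. Secretory transcripts of the acini and ducts, a list of 20 genes, took 37.8% of the members' UMIs and 76.8% of those of all barcodes, and 12.4% and 69.3% in the median barcode. Lymphocyte barcodes served as a reference for free RNA, since they should lack both mural and secretory genes. Their rule set no limit on these genes, and single barcodes held up to 25 UMIs of Rgs5, 15 of Acta2 and 3 of Kcnj8. Whether such barcodes also held a second cell was not tested. The summed secretory share was 35.7% in contractile members, 52.3% in endothelial, 17.7% in fibroblast and 52.6% in myoepithelial barcodes. In the median barcode these shares were 10.7%, 12.2%, 9.0% and 14.2%. In the 690 lymphocyte barcodes (median 2051 UMIs) the summed share was 40.5%, that of the median barcode was 10.02%, and 1.01% had a UMI of Acta2, 0.435% of Rgs5, 0.725% of Notch3 and 1.88% of Kcnj8. Of the contractile members (median 1898 UMIs), 100% had Acta2, 85.9% Rgs5 and 79.7% Notch3, but only 1 of 64 had Kcnj8 (1.56%), which was no more than in the reference. With each barcode thinned to 500 UMIs, Acta2 was found in 95.3% of contractile members and 0.435% of the reference, and Notch3 in 34.4% and 0.145%. Of the other genes of contractile members whose barcodes are counted below, Ndufa4l2 was the most frequent in the reference, at 1.01%. Levels below are UMIs summed over a set per 10000 UMIs of the set, with exact Poisson 95% intervals. These intervals cover counting error only. A gene is compared across sets and not with other genes. The 3 deepest contractile members held over 3 times the members' median of UMIs. Without them the other 61 held 128154 of 194531 UMIs, and their summed secretory share was 13.8% in place of 35.7%. Levels of mural genes were then higher, for example 108 in place of 73.9 for Acta2 and 6.16 in place of 4.32 for Cox4i2, and Krt18 was lower, at 0.858 in place of 2.52.

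The contractile members carried the smooth muscle apparatus at high levels. Acta2, smooth muscle actin, gave 1438 UMIs, 6 to 152 per barcode with a median of 18.5, and a level of 73.9 (70.1 to 77.8). It was 0.249 in 211 endothelial barcodes, 0 in 132 fibroblast barcodes and 15.7 in 58 myoepithelial barcodes. Tagln, the actin-binding protein transgelin, followed the same order at 52.5, 0.359, 0 and 7.22. Myh11, the smooth muscle myosin heavy chain, stood at 22.8, 0.159, 0 and 3.76. These 3 genes made the cut, and Acta2 also chose the myoepithelial barcodes, so their levels are given as a description. Myl9, Mylk and Ppp1r14a, outside the cut, were also highest in contractile members and next in myoepithelial barcodes. For them, fibroblast barcodes stood above endothelial ones. Myl9, the regulatory light chain whose phosphorylation starts contraction, gave 869 UMIs, 2 to 53 per barcode with a median of 12.5. Its level was 44.7 (41.8 to 47.7), against 0.259 in endothelial, 0.557 in fibroblast and 3.81 in myoepithelial barcodes. Mylk, the kinase that phosphorylates that light chain, stood at 10.8 (9.43 to 12.4) against 0.0996, 0.65 and 3.12. Ppp1r14a, an inhibitor of the myosin phosphatase, stood at 4.11 (3.26 to 5.12) against 0.0199, 0.0619 and 0.112. The kinase and the inhibitor were thus both highest in the contractile members, and Ppp1r14a was 36.9-fold above the myoepithelial barcodes (log2 5.20, 4.1 to 6.56).

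Thin filament genes were high as well. Tpm2 and Tpm1 encode tropomyosins. Tpm2 was at 23.9 (21.8 to 26.2) in contractile members and 6.56 in myoepithelial barcodes, and Tpm1 at 20.9 (18.9 to 23.0) and 4.03. Of the contractile genes with 50 UMIs, Des differed most between the contractile members and the myoepithelial barcodes, at 4.83 (3.90 to 5.91) against 0.0319, 152-fold (log2 7.24, 5.35 to 10.31). It had 0 to 7 UMIs per contractile member with a median of 1, and 45 of 64 members had one. Cnn1, the actin-binding protein calponin, was at 1.64 (1.13 to 2.32) in contractile members and 2.29 in myoepithelial barcodes. That difference was not resolved at this depth (log2 -0.48, -1.08 to 0.08). Actg2, the enteric smooth muscle actin, gave 7 UMIs, all in 1 barcode.

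A gene was counted as past the fold where its levels differed at least 4-fold and it had at least 50 UMIs over both sets. A gene can reach that depth through the set where it is high. Here and below, counts of list genes past the fold are therefore a description. Of the 26 genes of the contractile list, 19 had that depth against endothelial barcodes and all 19 were past the fold, where 5.39% of all 2021 genes were higher in contractile members. Their median log2 ratio was 4.56, and that of all genes was 0.07. Against fibroblast barcodes, 15 of 17 were past the fold (all genes 4.87%), with a median of 4.06 beside -0.47. Against myoepithelial barcodes, 13 of 21 were past it (all genes 8.11%), with a median of 2.24 beside 0.18, and none of the 21 was past it in the other direction. The 8 that were not past it against myoepithelial barcodes included Tpm2 (3.64-fold), Mylk (3.47-fold), Csrp1 (1.85-fold) and Cnn1. Acta2, Tagln and Myh11, which were past the fold in each comparison, had chosen the contractile members. Others, such as Myl9 with 869 UMIs against 26 in endothelial barcodes, reached the depth almost wholly through the contractile members. Without the 3 deepest members the counts were 19 of 19 (all genes 8.17%), 16 of 17 (6.43%) and 18 of 21 (11.5%). The comparison sets kept their own barcodes over 3 times the members' median. These were 25 of 211 endothelial, 3 of 132 fibroblast and 26 of 58 myoepithelial barcodes. The trim was on the contractile side only, so these counts do not compare sets treated alike.

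**Figure D3:**
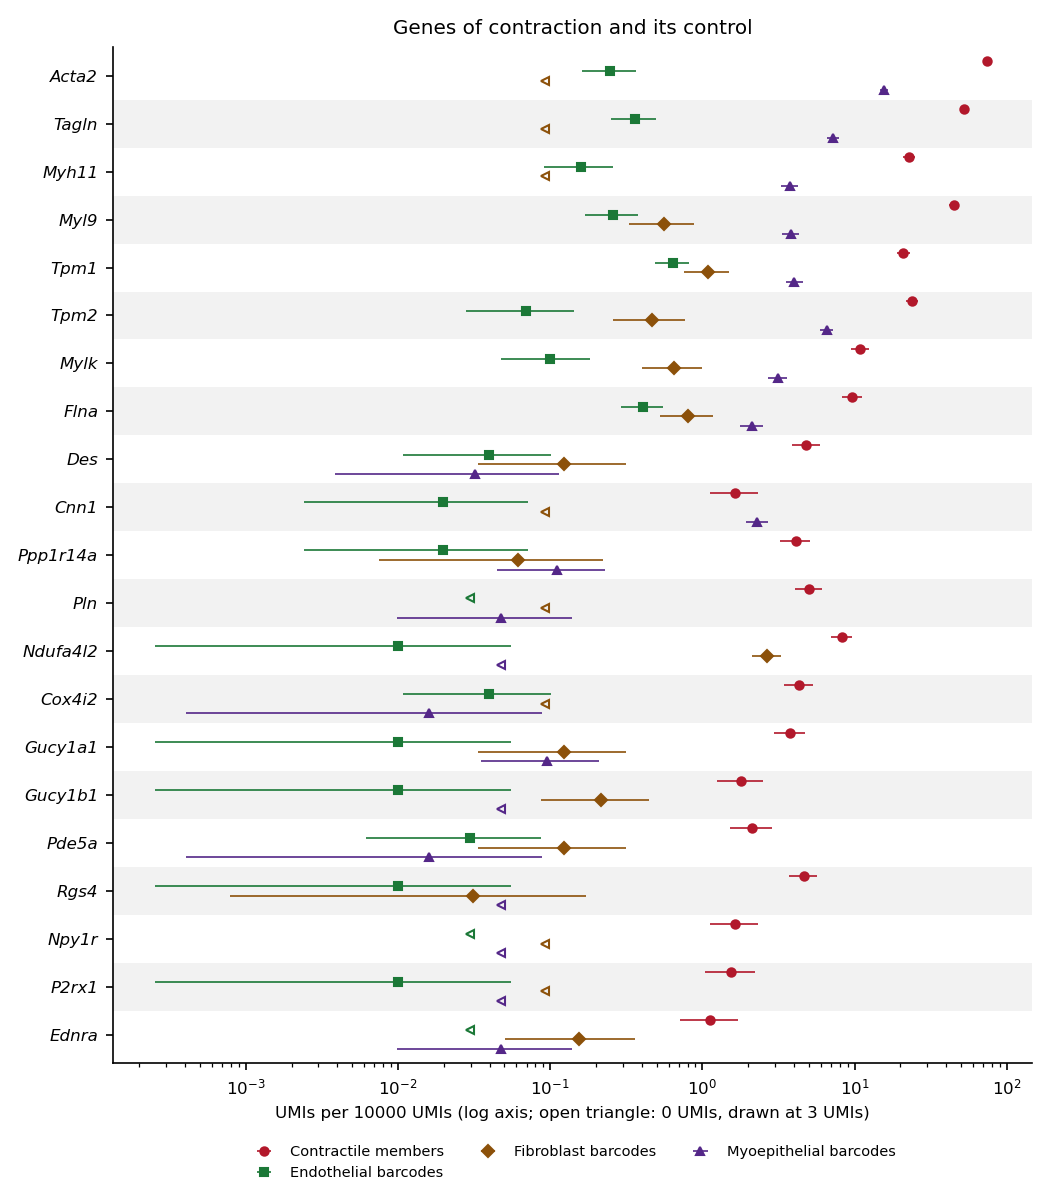
Levels of 21 genes of contraction, energy and signalling, in UMIs per 10000 on a log axis, in the 64 contractile members and in endothelial, fibroblast and myoepithelial barcodes. Bars are exact Poisson 95% intervals, and open triangles mark sets with 0 UMIs, drawn at the level of 3 UMIs. Cnn1 is the gene at which the myoepithelial barcodes (2.29) stand above the contractile members (1.64), and for Npy1r the other 3 sets have 0 UMIs.

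Smooth muscle genes are known targets of serum response factor, which binds the CArG box: CC, then 6 bases each A or T, then GG, a pattern that is its own reverse complement and so covers both strands. RefSeq promoters of GRCm38.p6, from 250 bases before a gene's start to 50 after it, were searched for it. The box was in 488 of 27025 genes with a promoter (1.81%). Of the list of 16 genes set for this search, 11 had a promoter and 1 of them held the box (9.09%). Of the contractile list, 21 of 26 genes had a promoter and 3 of them held the box (14.3%). Of the 15 pericyte genes, 11 had a promoter and 0 held it. The 3 boxes of the contractile list are shown in capitals with their surroundings on the gene's strand, because they are the places where that list's members share a sequence feature that the rule did not use.
Myl9, chr2:156775263-156775352, plus strand: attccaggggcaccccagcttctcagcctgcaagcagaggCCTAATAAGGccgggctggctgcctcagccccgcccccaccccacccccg
Vcl, chr14:20929148-20929220, plus strand: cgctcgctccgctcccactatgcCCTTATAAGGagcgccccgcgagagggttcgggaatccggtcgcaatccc
Myl6, chr10:128493040-128493069, minus strand: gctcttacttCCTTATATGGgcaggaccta
The Myl9 box started 161 bases before the RefSeq start and the Vcl box 227 before, both outside any gene of GENCODE M21. The Myl6 box started 50 bases before the RefSeq start and within an exon of Myl6 in that annotation. Myl6 (an essential myosin light chain) stood at 41.4 (38.6 to 44.3) in contractile members and 12.9 in myoepithelial barcodes, and Vcl (vinculin, which anchors actin to adhesions) at 1.44 (0.956 to 2.08) and 0.589. A match is a description of these letters in this window, and windows without one say nothing about the factor. The factor's own gene Srf gave 3 UMIs in contractile members, and its muscle partner Myocd gave 9 UMIs in 9 of the 64, with 0 in endothelial, fibroblast and myoepithelial barcodes.

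Genes of calcium handling, at the sarcoplasmic reticulum and at the plasma membrane, were read in the contractile members. Pln, phospholamban, which restrains the calcium pump of the reticulum, gave 98 UMIs in 43 of 64 contractile members, 0 to 7 per barcode with a median of 1. Its level was 5.04 (4.09 to 6.14), against 0 in endothelial and fibroblast barcodes and 0.0478 in myoepithelial ones. That was at least 169-fold above endothelial barcodes and 105-fold above myoepithelial ones (log2 6.72, 5.13 to 9.02). Atp2a2, the pump itself, was at 6.22 (5.16 to 7.43) against 0.667, 2.29 and 1.78. Casq2, a calcium store protein of the reticulum, gave 40 UMIs at 2.06, against 0.00996, 0 and 0.0637. Slc8a1, the sodium-calcium exchanger, gave 20 UMIs at 1.03 against 0, 0.155 and 0.0159. The release channel genes differed from one another, for Itpr1 was at 1.49 (0.998 to 2.14), whereas Ryr2 and Ryr3 had 0 UMIs, which allows up to 3 UMIs of 194531.

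Channel genes were sparse. Kcnab1, a subunit of voltage-gated potassium channels, gave 28 UMIs at 1.44, with 0 UMIs in the 3 comparison sets. Kcna5, a voltage-gated potassium channel, gave 15 UMIs and Kcnmb1, the subunit that tunes the calcium-activated potassium channel to smooth muscle, gave 10 UMIs in 10 barcodes. Cacna1h, a T-type calcium channel, gave 13 UMIs and Cacna1c, the L-type channel, 6. Of gap junction genes, Gjc1 was at 1.90 (1.34 to 2.62) against 0.189 in endothelial barcodes and Gja4 at 1.34 (0.873 to 1.96) against 0.229. Gja1 had 0 UMIs in contractile members and 0.827 in endothelial barcodes. Of 23 genes in the channel and calcium list, 6 had the depth against endothelial barcodes. Itpr1, Atp2a2, Atp2b4, Pln and Gjc1 were past the fold on the side of the contractile members (5 of 6, all genes 5.39%), and Gja1 on the other (all genes 10.7%).

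The potassium channel of Kcnj8 was nearly absent from the contractile members. Kcnj8 (chromosome 6, positions 142564837 to 142571614, minus strand, GRCm38) and its sulfonylurea subunit Abcc9 (chromosome 6, positions 142587862 to 142702315, minus strand), a neighbouring gene, encode the 2 parts of that channel and are marker genes of pericytes. Each gave 1 UMI in the 64 contractile members (0.0514, 0.0013 to 0.286), and 0.725% of lymphocyte barcodes had Abcc9. In fibroblast barcodes Abcc9 gave 19 UMIs (0.588), which was above the contractile members (log2 -3.52, -8.89 to -0.86).

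A pair of respiratory chain isoforms was higher in the contractile members than in the comparison sets. Ndufa4l2 (chromosome 10, positions 127514967 to 127517154, plus strand), a relative of a subunit of the respiratory chain that is known to be induced in low oxygen, gave 160 UMIs in 54 of 64 barcodes, 0 to 10 per barcode with a median of 2. Its level was 8.22 (7.0 to 9.60), against 0.00996 in endothelial, 2.66 in fibroblast and 0 in myoepithelial barcodes. Fibroblast barcodes thus came nearest of these comparison sets. Cox4i2 (chromosome 2, positions 152754173 to 152765037, plus strand), a cytochrome oxidase isoform with a role in oxygen sensing, gave 84 UMIs in 48 barcodes at 4.32 (3.44 to 5.35), against 0.0398, 0 and 0.0159. The pair was not particular to contractile members. Among the 18 Rgs5-rich members described below, Cox4i2 had a median of 1 UMI per barcode, as in contractile members, and Ndufa4l2 0.5. The common isoforms differed less than 4-fold. Ndufa4 was at 3.91 in contractile members and 4.07, 5.10 and 5.05 in endothelial, fibroblast and myoepithelial barcodes. Cox4i1 was at 6.48 against 3.66, 5.44 and 5.11, which was 1.77-fold above endothelial barcodes (log2 0.83, 0.52 to 1.12). Higd1b, another mitochondrial gene and a known pericyte marker, gave 22 UMIs in 10 barcodes at 1.13 (0.709 to 1.71). Of the other pericyte genes, Cspg4 (the proteoglycan NG2) gave 13 UMIs, Mcam 15, Vtn 2, Anpep 2 and Colec11 0.

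Nitric oxide made by endothelium relaxes smooth muscle through guanylate cyclase and cyclic GMP. Both subunits of the cyclase were found in contractile members, Gucy1a1 with 73 UMIs in 43 barcodes at 3.75 (2.94 to 4.72) and Gucy1b1 with 35 UMIs in 27 barcodes at 1.80 (1.25 to 2.50). Gucy1a1 stood at 0.00996 in endothelial, 0.124 in fibroblast and 0.0956 in myoepithelial barcodes. Pde5a, a phosphodiesterase that ends the signal, was also there at 2.11 (1.51 to 2.86). Another phosphodiesterase gene, Pde3a, was at 2.62 (1.95 to 3.45). Each was at most 0.124 in the 3 other sets. Prkg1, the kinase that cyclic GMP activates, gave 15 UMIs (0.771), and Mrvi1, its partner at the calcium store, 34 (1.75). Rgs4, a regulator of G protein signalling like Rgs5, gave 90 UMIs in 48 barcodes at 4.63 (3.72 to 5.69), against 0.00996, 0.0309 and 0. Of the 9 genes in this list, 3 had the depth in each comparison (Gucy1a1, Pde3a and Rgs4) and all 3 were past the fold in each, where 5.39%, 4.87% and 8.11% of all genes were. These 3 genes reached the depth almost wholly through the contractile members, so this count is a description only. Nos3, which makes the nitric oxide, was at 0.219 in endothelial barcodes and gave 1 UMI in contractile members.

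Receptors for vasoactive signals were few in UMIs. Of 31 genes in the list, 2, 1 and 0 had the depth against endothelial, fibroblast and myoepithelial barcodes, and none of these was past the fold. Npy1r, the receptor for the sympathetic transmitter neuropeptide Y, gave 32 UMIs in 22 contractile members at 1.64 (1.13 to 2.32), with 0 UMIs in endothelial, fibroblast and myoepithelial barcodes. P2rx1, the channel through which ATP from sympathetic nerves acts on smooth muscle, gave 30 UMIs in 21 barcodes at 1.54 (1.04 to 2.20), against 0.00996, 0 and 0. Alpha-adrenergic receptors, which read noradrenaline of the same nerves, were nearly absent, with 2 UMIs of Adra1a, 2 of Adra1d and 0 of Adra1b, Adra2a, Adra2b and Adra2c. Agtr1a (the angiotensin receptor), Chrm2 (muscarinic) and Tacr1 (substance P) also had 0, and each 0 allows up to 3 UMIs of 194531. Ednra, the constrictor endothelin receptor, gave 22 UMIs in 18 barcodes at 1.13 (0.709 to 1.71), against 0, 0.155 and 0.0478. Ednrb, the other endothelin receptor, was at 0.668 (0.356 to 1.14) and at 0.896 in endothelial barcodes (log2 -0.42, -1.39 to 0.42). S1pr3, a receptor for sphingosine 1-phosphate, was at 1.39 in contractile and 1.05 in fibroblast barcodes, a difference not resolved (log2 0.40, -0.38 to 1.17). The dilator receptor of calcitonin gene-related peptide has 2 parts, and Ramp1 was at 0.925 and Calcrl at 0.411, the latter beside 0.956 in endothelial barcodes.

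**Figure D4:**
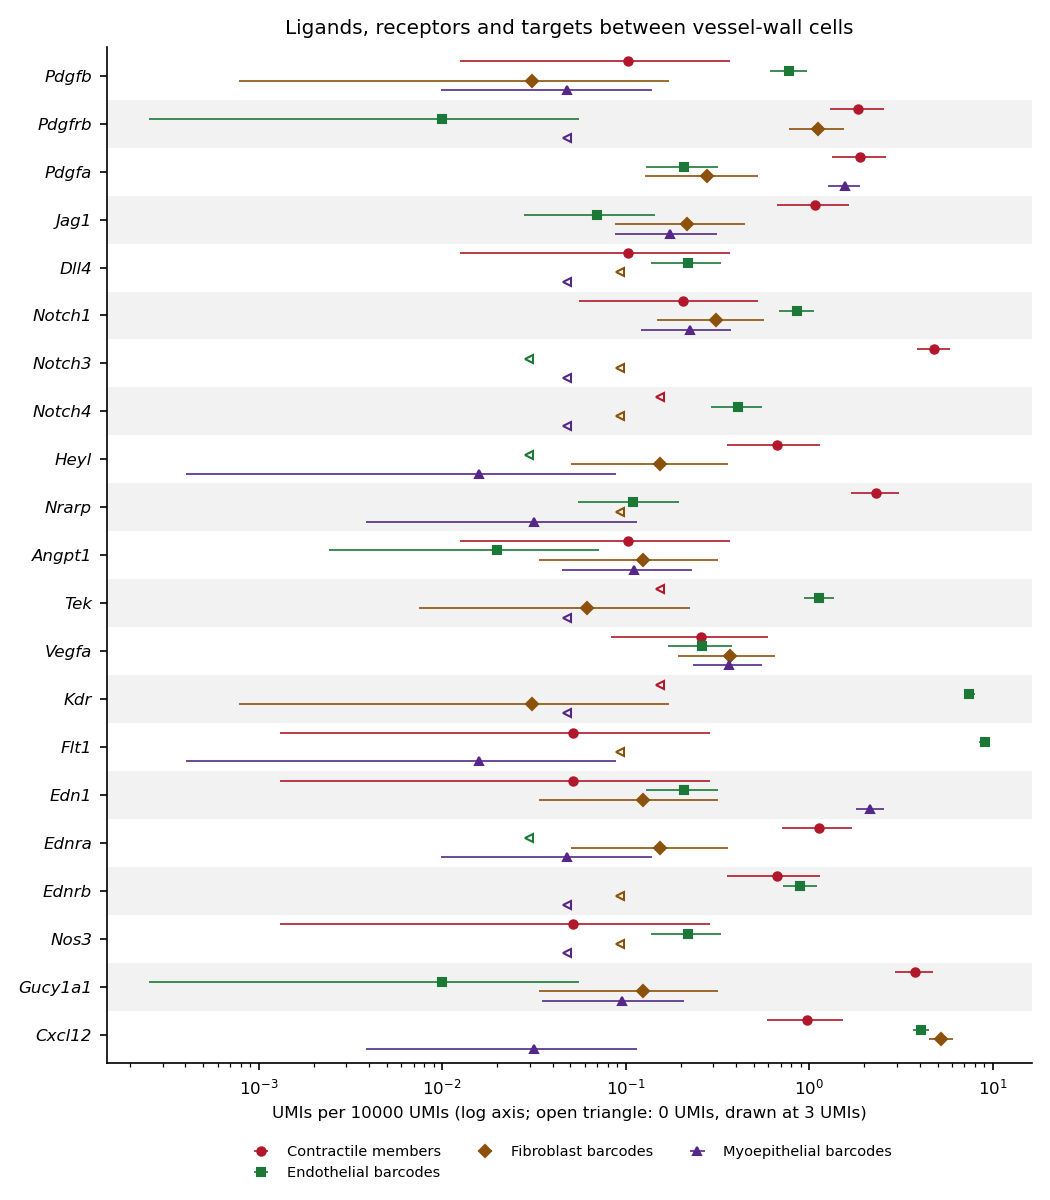
Levels of 21 signalling genes of the vessel wall, in UMIs per 10000 on a log axis, in contractile members and in endothelial, fibroblast and myoepithelial barcodes, with exact Poisson 95% intervals and open triangles for 0 UMIs drawn at 3 UMIs. Notch3, Ednra and Gucy1a1 have their highest level in the contractile members, whereas Pdgfb (0.777), Dll4 (0.219) and Nos3 (0.219) have it in endothelial barcodes and Edn1 (2.15) in myoepithelial barcodes.

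In the Notch pathway, Notch3 and several known targets of the pathway were read in the contractile members. Notch3 (chromosome 17, positions 32120820 to 32166852, minus strand) was at 4.78 (3.86 to 5.86), 0 to 4 UMIs per barcode with a median of 1, but the rule chose members by it and kept it out of the comparison sets. Among targets of the pathway, Nrarp was at 2.31 (1.69 to 3.10) against 0.110 in endothelial, 0 in fibroblast and 0.0319 in myoepithelial barcodes. Hes1 was at 7.15 (6.01 to 8.44) against 2.82, 3.16 and 1.59. Heyl gave 13 UMIs and Hey2 8, and endothelial barcodes had 0 and 1. The ligand gene Jag1 was at 1.08 (0.668 to 1.65) in contractile members and 0.0697 in endothelial barcodes (log2 3.95, 2.66 to 5.43), whereas Dll4 and Jag2 were at 0.103 and 0.0514 against 0.219 and 0.309. Other receptors lay on the endothelial side, with Notch1 at 0.206 against 0.857 and Notch4 at 0 against 0.408. Of the 16 genes, 4 had the depth against endothelial barcodes, of which Notch3 and Nrarp were past the fold higher (all genes 5.39%) and Notch1 lower (all genes 10.7%). The rule had fixed Notch3, so Nrarp was the 1 higher gene that the rule had not used. Whether Notch3 acted on any of these targets was not tested.

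Most genes of vessel signalling that had the depth, ligands and receptors alike, were lower in contractile members than in endothelial barcodes. Of 31 genes in the list, 16 had the depth against endothelial barcodes. In contractile members, 11 of these were at least 4-fold lower (all genes 10.7%) and 1, Pdgfa, was at least 4-fold higher (all genes 5.39%). Their median log2 ratio was -2.90. Endothelial barcodes held 1004058 UMIs and contractile members 194531, so a gene reached the depth more easily where it was high in endothelial barcodes. These counts are therefore a description. Pdgfb, the ligand of Pdgfrb, was at 0.103 in contractile members and 0.777 in endothelial barcodes (log2 -2.92, -5.99 to -1.02). Pdgfa, a ligand read by Pdgfra, was at 1.90 (1.34 to 2.62) against 0.209 in endothelial and 1.56 in myoepithelial barcodes. The VEGF receptors Kdr (0 against 7.46) and Flt1 (0.0514 against 9.04) and the angiopoietin receptors Tek (0 against 1.14) and Tie1 (0.0514 against 1.35) were endothelial, and Kdr also chose those barcodes. Angpt1, the angiopoietin that mural cells are known to make, gave 2 UMIs and Vegfa 5. Edn1, endothelin, gave 1 UMI in contractile members and was at 0.209 in endothelial and 2.15 in myoepithelial barcodes (log2 against the latter -5.39, -10.70 to -2.88). Tgfb3 was at 0.874 against 0.0299 in endothelial barcodes, and Eng, a receptor of this family, at 0.103 against 2.62. Cxcl12, a chemokine of stroma and vessels, was at 0.977 (0.588 to 1.53), 4.05 and 5.23 in contractile, endothelial and fibroblast barcodes.

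Extracellular matrix genes of the contractile members were few but distinct. Fibrillar collagens were almost absent, with 0 UMIs of Col1a1, 0.360 of Col1a2 and 0.308 of Col3a1, against 9.47, 33.3 and 30.7 in fibroblast barcodes. The rule had held Pdgfra and Dpt at 0 in members, and these genes chose the fibroblast barcodes. Of 18 interstitial genes with the depth, 13 were at least 4-fold lower than in fibroblast barcodes (all genes 18.8%), with a median log2 of -5.14. Of 11 basement membrane genes, 8 were lower, among them Col4a1 at 1.39 against 10.0 (log2 -2.85, -3.48 to -2.28). Lamb2, a laminin chain of vessel walls, went the other way. It was at 3.29 (2.53 to 4.20) against 0.448 in endothelial, 1.11 in fibroblast and 0.143 in myoepithelial barcodes, and was past the fold against the first and the last. Sparcl1, a matrix glycoprotein, was at 10.1 (8.71 to 11.6) against 2.22, 3.03 and 0.191. Mfge8, a milk fat globule protein that arteries deposit, was at 6.17 (5.11 to 7.38) against 1.45, 1.92 and 1.04. Timp3, a protease inhibitor, was at 6.94 in contractile and 7.04 in endothelial barcodes, with a log2 ratio of -0.02 (-0.30 to 0.25). Eln, elastin, gave 11 UMIs in 6 barcodes at 0.565 against 2.07 in fibroblast barcodes.

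Among transcription factors, Mef2c, a regulator of muscle genes, was at 6.89 (5.77 to 8.16) in contractile members, 3.39 in endothelial, 0.186 in fibroblast and 0.573 in myoepithelial barcodes. Epas1, the hypoxia factor of vessels, was at 4.78 (3.86 to 5.86) against 2.88, 1.58 and 0.398. Tbx2 gave 36 UMIs in 27 barcodes at 1.85 (1.30 to 2.56) against 0.0398, 0.247 and 0, and Foxs1 gave 32 UMIs in 25 barcodes at 1.64 against 0.0199, 0.557 and 0.0159. Ebf1 was shared among stromal sets, at 2.31, 1.75, 4.15 and 0. Tcf15 was shared with endothelium, at 1.44 and 0.627, with 0 in fibroblast barcodes. Tbx18, Foxf2, Foxd1 and Tcf21, which mark perivascular or stromal cells in some other organs, had 0 UMIs in all 195 members.

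The largest ratios of members to the rest of the matrix went to genes of the contractile members. Over all 195 members, 3484 of 12486 genes were at least 4-fold higher than in other barcodes (27.9%) and 66 at least 4-fold lower (0.529%). The first count was 305 with secretory genes left out and 1048 with each barcode weighted alike. Pln (log2 8.02), Casq2 (8.02), Nrip2 (7.87), Npy1r (7.77) and Olfr558 (7.73) led. Olfr558, an odorant receptor gene, gave 60 UMIs in contractile members at 3.08, 0.00996 in endothelial barcodes and 0 in the other 2 sets. Nrip2 gave 62 UMIs at 3.19, with 0, 0 and 0.0159. Mustn1, a small protein of muscle, gave 269 UMIs at 13.8 against 0.259, 0.0309 and 0.0319. Rasl11a was at 18.9 against 0.129, 0.804 and 0.414, and Rrad, a small GTPase that restrains L-type calcium channels, at 9.97 against 0.378, 0.309 and 0.0478. Igfbp7 was high in contractile (19.0), endothelial (20.8) and fibroblast barcodes (22.0) alike and low in myoepithelial ones (0.159). Against the 3 sets as a whole, the 195 members had 175 of 3161 genes (5.54%), 154 of 2439 (6.31%) and 118 of 2461 (4.79%) past the fold on the higher side, for endothelial, fibroblast and myoepithelial barcodes in turn. On the lower side they had 188 (5.95%), 263 (10.8%) and 23 (0.935%). Since the members are mixed, duct genes stood among these, and 6 of 7 duct markers were past the fold against endothelial barcodes, where 13 of 21 contractile genes were.

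Markers of other cell types were low in the contractile members. The rule had held Krt5, Krt14, Pdgfra, Dpt and Ptprc at 0 and Cdh5 and Kdr at no more than 1 UMI, and some of these had chosen the comparison sets, so they are left out of the sums here. Other genes of the same cells could be lowered by that choice, so the sums are a description. Of the other 10 endothelial markers, 6 had a UMI, with a summed level of 3.65 (2.85 to 4.60) against 70.7 in endothelial barcodes. It was made mostly of Esam (29 UMIs) and Fabp4 (33), while Tek, Emcn, Egfl7 and Plvap were at 0. Of the other 9 fibroblast markers, 4 had a UMI, at 3.91 (3.08 to 4.89) against 412 in fibroblast barcodes. The basal genes Krt17 and Trp63 were at 0, against 1.70 and 0.653 in myoepithelial barcodes. Immune markers were at 0.411 (myeloid) and 0.154 (lymphoid), and Schwann cell markers at 0.308. Acinar transcripts were not low, at 2408 in the summed set and 714 in the median barcode. Immediate early and heat shock genes, 15 in all, summed to 189 (183 to 195) in contractile members, 129 in endothelial, 275 in fibroblast and 158 in Kcnj8-only barcodes. The glands had been digested with enzymes before capture, and the part of that step in these levels was not tested.

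A second group of members had much Rgs5 and little smooth muscle apparatus. Of the members that were not contractile, 18 held at least 4 UMIs of Rgs5 and under 10 of Acta2, Tagln and Myh11, 0 to 8 with a median of 1.5. Rgs5 (chromosome 1, positions 169655501 to 169695813, plus strand) chose them, at 22.6 against 16 in contractile members. Of the contractile list, 14 of 16 genes with the depth were at least 4-fold higher in the contractile members (all genes 10.7%), with a median log2 of 2.96 beside 0.32 over all genes, and the cut had used 3 of them. On the other side stood 3.05% of all genes. Flna, the actin crosslinker filamin, was 18.7-fold higher (log2 4.22, 2.65 to 6.51) and Myl9 12.9-fold (log2 3.69, 3.06 to 4.41). Pln had 0 UMIs in the Rgs5-rich members and was at least 9.73-fold higher in contractile ones. Other genes lay on the side of the Rgs5-rich members. Abcc9 gave 7 UMIs in 5 of 18 barcodes at 1.21, against 1 UMI in 64 contractile members (log2 -4.56, -10.05 to -1.59). Kcnj8 gave 6 UMIs in 2 barcodes, and the rule had used it. Higd1b gave 12 UMIs at 2.07 against 1.13, a difference not resolved (log2 -0.87, -1.95 to 0.28). Cxcl12 was 6.89-fold higher in Rgs5-rich members, at 6.73 against 0.977 (log2 -2.79, -3.66 to -1.96). Steap4 gave 18 UMIs at 3.11 against 0.308, and Sparc was at 11.6 against 6.07. All 10 endothelial markers outside the rule were also read in these 18 barcodes, at a summed level of 25.7 (21.8 to 30.2) against 3.65 in contractile and 70.7 in endothelial barcodes. Of the 18, 13 had at least 2 UMIs of these markers (72.2%), against 15 of 64 contractile members (23.4%). Fabp4 was at 11.4 and Plvap at 2.07, against 1.70 and 0 in contractile members. The part of this endothelial RNA in the levels of the Rgs5-rich members was not tested.

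**Figure D5:**
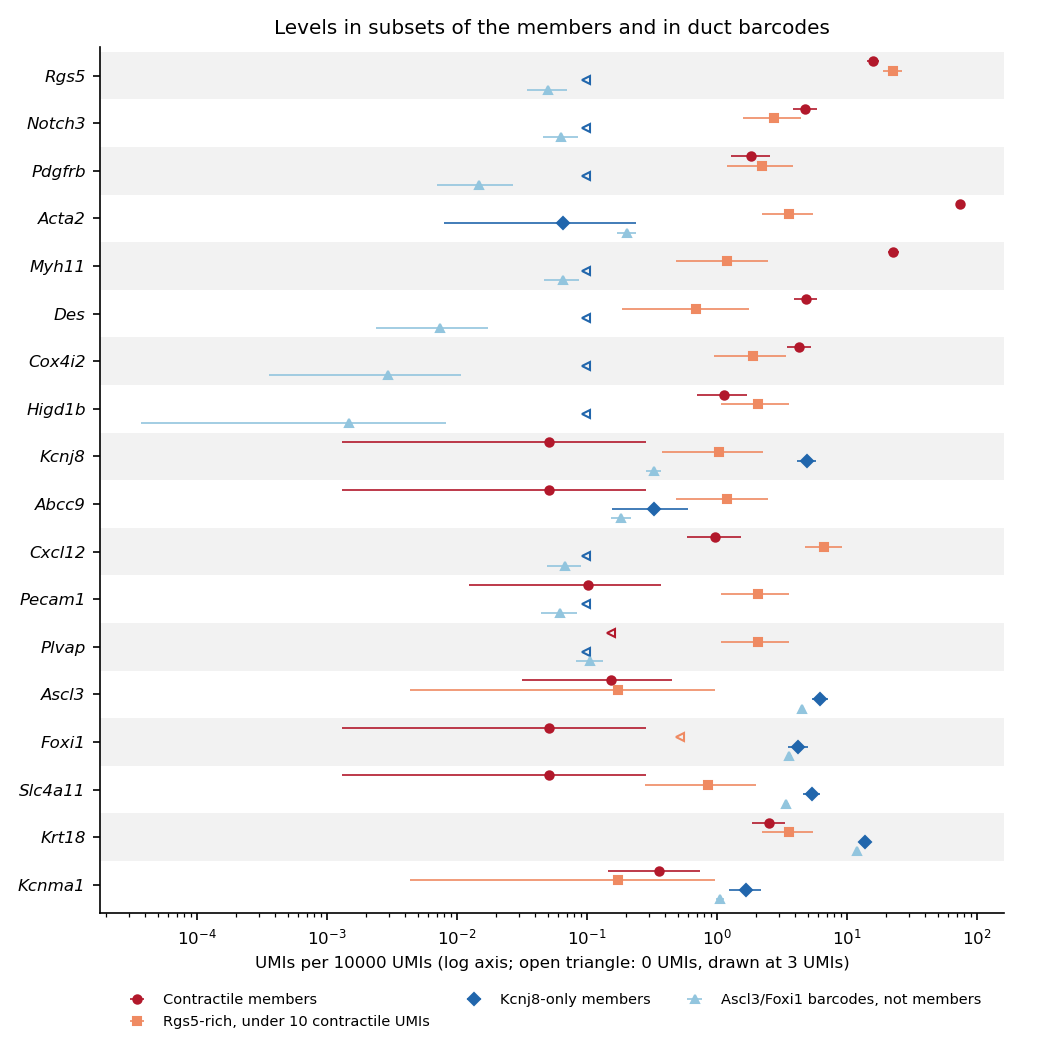
Levels of 18 genes, in UMIs per 10000 on a log axis, in 64 contractile members, 18 Rgs5-rich members with under 10 contractile UMIs, 70 Kcnj8-only members and 1296 barcodes outside the members with at least 2 UMIs of Ascl3 and Foxi1, with exact Poisson 95% intervals and open triangles for 0 UMIs drawn at 3 UMIs. Ascl3, Foxi1, Slc4a11 and Krt18 lie close together in the last 2 sets, whereas Rgs5, Notch3 and Acta2 lie highest in the first 2 and the endothelial genes Pecam1 and Plvap highest in the Rgs5-rich members.

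For the Kcnj8-only members the data went against the label. Their lack of Rgs5, Notch3 and Pdgfrb was part of how they were chosen. That choice, and the rule's limit on Cdh5 and Kdr, could also lower genes read in the same cells. The zeros given next are therefore a description. Of genes not used by the rule, none of 10 endothelial markers had a UMI in these 70 barcodes. Des, Ndufa4l2, Cox4i2, Gucy1a1, Rgs4 and Pln also had 0 UMIs, at a median of 2943.5 UMIs per barcode. Other genes of the contractile and pericyte lists were read. Pdlim3 had 0 to 5 UMIs per barcode with a median of 1, against a median of 0 in contractile members. Csrp2 reached 5 UMIs in a barcode, Tpm1 3 and Abcc9 2. The Kcnj8-only members also carried genes of a duct cell. Ascl3, a transcription factor of salivary duct cells, gave 189 UMIs, 0 to 12 per barcode with a median of 2, and Foxi1, a transcription factor of ion-transporting cells, gave 129, 0 to 9 with a median of 1. Of the 70, 56 had at least 2 UMIs of the pair (80.0%, 68.7% to 88.6%), against 1 of 64 contractile members. A UMI of Ascl3 was in 80.0% of Kcnj8-only members and 3.91% of lymphocyte barcodes. After thinning to 500 UMIs these shares were 34.3% and 0.870%. Duct keratins followed, with at least 10 UMIs of Krt7, Krt8, Krt18 and Krt19 in 32 of 70.

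The Kcnj8-only members were compared with the 1296 barcodes outside the members that had at least 2 UMIs of Ascl3 and Foxi1. Ascl3 was at 6.22 and 4.51, Foxi1 at 4.24 and 3.62, and Krt18 at 13.9 and 12. The pair Ascl3 and Foxi1 had chosen the outside barcodes. Slc4a11, a membrane transporter, was at 5.36 and 3.43, and the vacuolar proton pump subunit Atp6v1b1 at 1.05 and 0.564. Bsnd, the chloride channel subunit barttin, was at 1.41 and 1.22, Hepacam2 at 4.71 and 3.31, and Kcnma1, the calcium-activated potassium channel, at 1.68 and 1.06. Of 7967 genes, 7 were at least 4-fold higher in the Kcnj8-only members (0.0879%) and 93 at least 4-fold lower (1.17%). Of 8 duct markers with the depth, 0 were past the fold in either direction. Since so few of all genes were past it, this count says nothing particular to duct markers. The median share of mitochondrial UMIs was 10.6% in Kcnj8-only members and 11.2% in these duct barcodes, against 7.21% in contractile and 2.85% in Rgs5-rich members. Kcnj8 itself, which chose the members, was at 4.94 and 0.327.

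Kcnj8 was also read in duct barcodes outside the members. A UMI of it was in 505 of 15707 barcodes (3.22%) and in 214 of the 1296 Ascl3 and Foxi1 barcodes outside the members (16.5%, 14.5% to 18.6%, median 3226 UMIs), against 1.88% of lymphocyte barcodes (median 2051). After thinning to 500 UMIs the shares were 3.09% and 0.290%. Of the 103 barcodes with at least 2 UMIs of Kcnj8, 62 had at least 2 of Ascl3 and Foxi1 (60.2%) and 20 had Rgs5 (19.4%). Abcc9 was read with it, in 12.9% of Kcnj8-only members, 8.33% of the duct barcodes and 0.725% of lymphocyte barcodes.

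The other 61 members were mixed. Of the 52 with at most 2 contractile UMIs and a UMI of Rgs5, Notch3 or Pdgfrb, 18 had at least 2 UMIs of the endothelial markers outside the rule (34.6%), 13 had at least 10 keratin UMIs (25%), 5 had at least 5 UMIs of Col1a1, Col1a2, Col3a1, Dcn and Lum (9.62%) and 4 had at least 2 of Ascl3 and Foxi1 (7.69%). Secretory genes took 50.7% of the UMIs in the median barcode of these 52, against 10.7% in contractile and 8.86% in Kcnj8-only members. The summed shares were 50.8%, 35.7% and 28.1%, and the contractile one was 13.8% without its 3 deepest barcodes. Of the 9 members with 3 to 9 contractile UMIs, 7 had the endothelial markers (77.8%, 40.0% to 97.2%). Between the contractile members and the 122 with at most 2 contractile UMIs, 100 of 1396 genes were at least 4-fold higher in the first (7.16%) and 128 lower (9.17%). Of the contractile list, 16 of 17 genes with the depth were among the first, 3 of them used by the cut, and 5 of 7 duct markers (Krt8, Krt18, Ascl3, Foxi1 and Epcam) were among the second.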

How the data were processed

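The authors deposited 1 matrix of raw UMI counts per gene and barcode from 10x Genomics 3′ libraries, without normalization. The submitters' processing notes name Cell Ranger 6.0.1, Seurat 4.1.1 and mm10, and the annotation is not given in the sources used here. A barcode filter is not stated, and all 15707 barcodes with 32285 listed genes, of which 19290 had a UMI, were kept. Depth was 1374 to 141509 UMIs per barcode, 125100595 in all.

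Members and comparison sets were taken by UMI thresholds and not by clustering. Endothelial barcodes had at least 2 UMIs of Cdh5 and Kdr, and fibroblast barcodes at least 2 of Pdgfra and Dpt. Myoepithelial barcodes had at least 2 of Krt14 and at least 2 of Acta2. Each had at most 1 UMI of the 4 mural genes and none or at most 1 of the genes of the other sets. Lymphocyte barcodes had Ptprc, at least 2 UMIs of Nkg7 and no C1qa, C1qb or C1qc. Members, gene lists and sets were chosen with earlier results of these data known. The Kcnj8-only, Rgs5-rich and Ascl3 and Foxi1 sets, and comparisons of the contractile members alone, were chosen after the data were seen.

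Levels are UMIs per 10000 with exact Poisson intervals, shares carry exact binomial intervals and ratios exact conditional binomial ones, all at 95%. For a set at 0 UMIs a floor of 3 was used and the fold written as at least. Genes named are those of the 25 lists (316 genes), the 30 or 15 largest ratios per comparison among genes with 50 UMIs, and a few, such as Slc4a11, Steap4, Hepacam2, Bsnd, Atp6v1b1 and Kcnab1, added after their values were seen. The ratio and its interval were tested on simulated Poisson counts, for members against endothelial, fibroblast and myoepithelial barcodes. Other steps were not tested on simulated data. Scrublet called 0 of 15707 barcodes as doublets, too few for its calls to be used, and no doublet was removed. Positions are from GENCODE M21 (GRCm38). Python 3.11.15, numpy 2.4.6, scipy 1.17.1, pandas 2.3.3, matplotlib 3.10.9 and scanpy 1.11.5 were used. Alternatives were other rule thresholds, barcode filters, secretory genes left out, equal weights, thinning to 500 UMIs and other minimums.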

Additional observations from a re-analysis of the deposited data

How the results depend on the processing

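No paired analysis was possible because the barcodes could not be given to samples and no test was run. Of the 195 members, 90 were left with at least 3 UMIs of the rule genes, 186 after dropping barcodes under 200 genes or over 20% mitochondrial UMIs, 183 without the 10% highest Scrublet scores and 184 without the deep ones. Restricting to members with Rgs5, Notch3 or Pdgfrb (125) or to contractile members (64) was chosen after seeing the data. The count of genes at least 4-fold higher moved as follows. Against other barcodes, 3484 became 5521 without deep members, 305 outside secretory genes, 1048 with equal weights and 5983 with contractile members alone. Against endothelial barcodes, 175 became 84 with at least 3 rule UMIs, 115 outside secretory genes, 332 after thinning, 443 at a minimum of 20 UMIs, 88 with Rgs5, Notch3 or Pdgfrb and 109 with contractile members alone. Against fibroblast barcodes, 154 became 60, 235 after thinning, 318 at the lower minimum, 90 and 60 for the same choices. Against myoepithelial barcodes, 118 became 71 after thinning and 330 at the lower minimum. Between bands, 100 became 58 with at least 3 rule UMIs, 209 after thinning and 239 at the lower minimum.

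Of 196 single-gene values under alternatives, 126 stayed within their counting interval and 68 left it. The other 2 reversed from a main ratio of at least 4-fold. With contractile members alone, Ascl3 against other barcodes had a log2 ratio of -0.92 and Kcnj8 against fibroblast barcodes -0.85. Smaller ratios could change sign among the 68, as Sparcl1 against endothelial barcodes did, from log2 0.34 to -0.04 outside secretory genes. Without the 3 deepest contractile members, also added after seeing the data, genes higher against endothelial, fibroblast and myoepithelial barcodes were 161, 76 and 141 in place of 109, 60 and 103, and contractile genes past the fold against myoepithelial barcodes 18 in place of 13 of 21. Where deep members were left out, the endothelial, fibroblast, myoepithelial and other barcodes kept their deep ones. With 1 matrix, the spread between animals is unknown, and genes under 50 UMIs were not counted.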
